A study of Mus with 6 samples.

Results

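The miR-34 family comprises the mature miRNAs of 3 mouse precursors, miR-34a, miR-34b and miR-34c. Its members were taken as every row of the count tables whose name begins with mmu-miR-34a-, mmu-miR-34b- or mmu-miR-34c-. There were 6 such names in every table, of 1211 known mature miRNA names listed in all: both arms of each precursor. In full they are mmu-miR-34a-5p, mmu-miR-34a-3p, mmu-miR-34b-5p, mmu-miR-34b-3p, mmu-miR-34c-5p and mmu-miR-34c-3p, written below without the species prefix except where each is first described. Small RNA had been sequenced from adipocytes of wild-type (WT) C57BL/6 mice, in 3 libraries labelled chronic intermittent hypoxia (CIH) and 3 labelled control. CIH means that oxygen is lowered and restored again and again, as happens in sleep apnoea. The sources used here give neither its depth and length nor the age of the mice, nor whether animals or cultured cells were exposed. The labels do not state separate animals or cultures for the libraries. The p-values therefore set group differences only against the variation between these libraries, and that variation may be technical.

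The miR-34 genes are textbook transcriptional targets of the tumour suppressor p53, which binds near their promoters after DNA damage and other stress. The 5p arms of the family are the usual guide strands, share a seed, and repress cell cycle and survival genes such as Cdk6, Met and Bcl2 as well as the deacetylase Sirt1. miR-34a is expressed in many tissues and is known in fat for its rise with obesity, whereas miR-34b and miR-34c are transcribed together and are best known from multiciliated epithelium and male germ cells. Each hairpin gives a 5p and a 3p arm, of which one is usually kept by Argonaute and the other degraded.

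On GRCm38 the precursor gene of miR-34a lies on chromosome 4 (150068454 to 150068555), outside the span of any other gene in the RefSeq table. The nearest gene there is the long non-coding RNA Gm13067, 9737 bases away. Those of miR-34c (51103034 to 51103110) and miR-34b (51103562 to 51103645) lie on chromosome 9, with 451 bases between them. Both fall within the annotated spans of the protein-coding genes Btg4 and Hoatz, and that table does not say whether they lie in exons or introns.

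The libraries held 7336758, 10042644 and 11264151 counts in CIH libraries 1, 2 and 3 and 6291101, 9720485 and 8259937 counts in control libraries 1, 2 and 3. Values below are CPM, counts divided by the library total and scaled to 1000000. The floor was set at 3 counts, which is 0.266 to 0.409 CPM in CIH and 0.309 to 0.477 CPM in control libraries. The libraries numbered 3 came with a different list of names and stood apart in both groups: log2 CPM over 257 miRNAs correlated at 0.972 to 0.994 among the libraries numbered 1 and 2, and at 0.889 to 0.905 in every pair that included a library numbered 3. Results are therefore also given without them. Of 5 miRNAs of adipocytes and their precursors, none of them exclusive to these cells, all were present, from 144692 to 309882 CPM in sum in CIH and from 212767 to 589347 CPM in control libraries. In the libraries numbered 3 most of that sum was miR-148a-3p, with 249065 CPM in the CIH library and 493520 CPM in the control library. None of the 5 was called in all 6 libraries, where 0 of 456 miRNAs were. In the libraries numbered 1 and 2 all 5 had a negative log2 difference and 2 fell, miR-193b-3p by 1.32 and miR-148a-3p by 0.66 on the log2 scale (edgeR adjusted p = 0.00714 and 0.0348), where 5.23% of 459 miRNAs fell. Their part in the levels of the family was not tested.

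In these adipocytes the family was almost entirely miR-34c-5p, the guide arm of miR-34c. It made up 92.4%, 95.9% and 91.0% of all miR-34 counts in CIH libraries 1, 2 and 3, and 96.2%, 95.6% and 96.4% in control libraries 1, 2 and 3. Among known miRNAs it ranked between 25 and 41 by count in CIH and between 30 and 36 in control libraries. miR-34a-5p, the guide arm of miR-34a, ranked between 106 and 163 in CIH and between 147 and 181 in control libraries. For each count of miR-34a-5p there were 30.7, 60.4 and 21.9 counts of miR-34c-5p in CIH libraries 1, 2 and 3, and 68.8, 52.3 and 47.5 in control libraries 1, 2 and 3. The sources used here do not say how reads matching more than one name were counted, and the 5p arms are similar in sequence, so the split among them carries that uncertainty.

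mmu-miR-34c-5p stood at 1614, 2362 and 4610 CPM in CIH libraries 1, 2 and 3, against 2646, 2426 and 1729 CPM in control libraries 1, 2 and 3. CIH library 3 was the highest of the 6 and CIH library 1 the lowest, so the control range lay inside the CIH range. The means were 2862 ± 1559 CPM in CIH and 2267 ± 478 CPM in control libraries (SD, n = 3 each), and the log2 difference was 0.18 (SE 0.50, edgeR quasi-likelihood test, adjusted p = 0.988). In bulk libraries, more cells that express a miRNA and more of it per cell cannot be told apart.

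Its passenger arm, mmu-miR-34c-3p, stood at 20.9, 16.1 and 47.2 CPM in CIH libraries 1, 2 and 3, against 13.0, 15.2 and 4.48 CPM in control libraries 1, 2 and 3. Every CIH library was above every control library, though CIH library 2 and control library 2 were close, and by file total it was the only one of the 6 names whose groups did not overlap. Of 456 miRNAs tested, 11.2% had groups that did not overlap, and 7.46% were higher in CIH without overlap. The log2 difference of miR-34c-3p was 1.29 (SE 0.55, edgeR quasi-likelihood test, unadjusted p = 0.0492), and it did not pass, with an edgeR adjusted p of 0.833.

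mmu-miR-34b-3p, the more abundant arm of miR-34b here, stood at 53.6, 33.7 and 183 CPM in CIH libraries 1, 2 and 3, against 34.5, 35.6 and 17.2 CPM in control libraries 1, 2 and 3. CIH libraries 1 and 3 were above all controls, and CIH library 2 lay within the control range. After TMM scaling, edgeR's correction for library composition, the CIH libraries held 46.7, 35.9 and 165 CPM, against 28.8, 32.3 and 27.1 CPM in the controls. On that scale the groups did not overlap, and 8.11% of 456 miRNAs were higher in CIH in the same way. The log2 difference was 1.49 (SE 0.65, edgeR adjusted p = 0.833).

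mmu-miR-34b-5p, the seed-sharing arm of miR-34b, rested on few reads, with 40, 133 and 194 counts in CIH libraries 1, 2 and 3 and 117, 143 and 60 counts in control libraries 1, 2 and 3. In CPM the CIH libraries held 5.45, 13.2 and 17.2, and the control libraries 18.6, 14.7 and 7.26. The groups overlapped, with the lowest value in CIH library 1 and the highest in control library 1. Its log2 difference of -0.23 (SE 0.55, edgeR adjusted p = 0.988) was the only negative one among the 5 names tested.

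mmu-miR-34a-5p stood at 52.6, 39.1 and 211 CPM in CIH libraries 1, 2 and 3, against 38.5, 46.4 and 36.4 CPM in control libraries 1, 2 and 3. CIH library 3 was far above the other 5 libraries, and these overlapped between the groups. The log2 difference of 1.08 (SE 0.68, edgeR adjusted p = 0.899) became -0.01 without CIH library 3. It was 0.23 (SE 0.30) when control library 3 was left out as well. The passenger arm mmu-miR-34a-3p was at or below the floor everywhere, with 1, 0 and 3 counts in CIH libraries 1, 2 and 3 and 0 in each control library, and did not pass the filter on low counts.

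**Figure D1:**
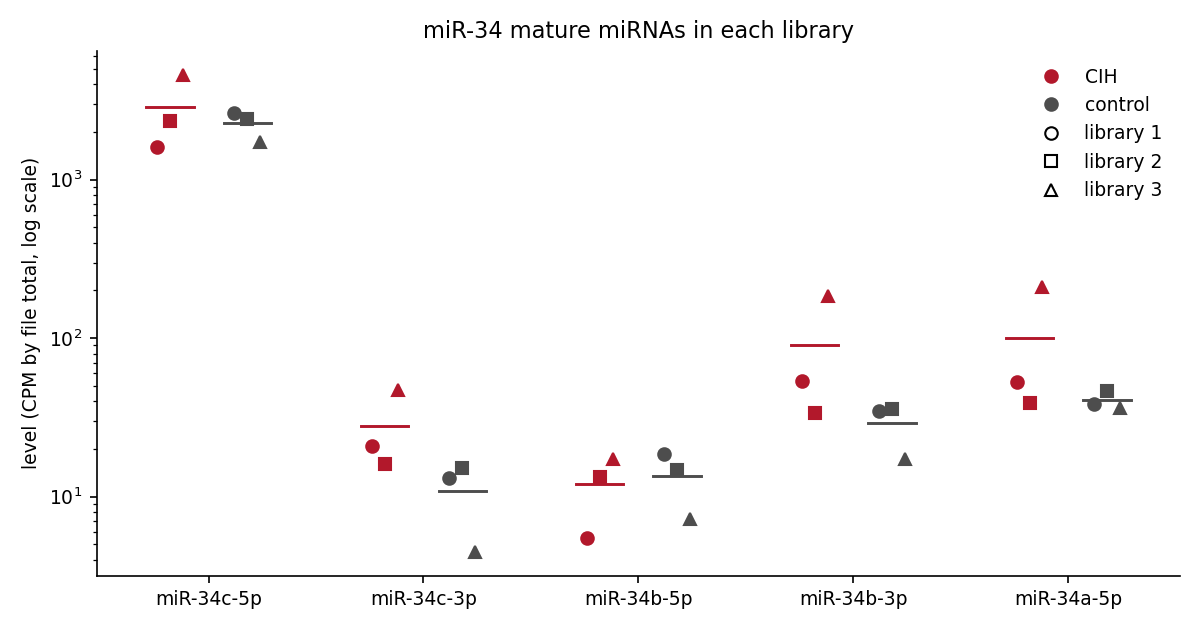
Level of 5 miR-34 names in each library, in CPM on a log axis, with CIH in red left of control in grey and the library number as the marker shape (bars: group means, n = 3 each). CIH library 3 is the highest CIH library for every name, with miR-34a-5p at 211 CPM there and at 36.4 to 52.6 CPM elsewhere.

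Since mature miRNAs are close to one another in length, their CPM can be set side by side, with the reservation that ligation captures sequences unequally. miR-34c-5p led in all 6 libraries. miR-34a-5p and miR-34b-3p followed, at 101 ± 95.3 and 90.2 ± 81.3 CPM in CIH libraries. In control libraries they averaged 40.4 ± 5.26 and 29.1 ± 10.3 CPM (SD, n = 3 each). Within a library miR-34a-5p was the higher of the 2 everywhere but in CIH library 1, where they stood at 52.6 and 53.6 CPM. miR-34c-3p averaged 28.1 ± 16.8 CPM in CIH and 10.9 ± 5.68 CPM in control libraries. miR-34b-5p averaged 11.97 ± 5.99 CPM in CIH and 13.5 ± 5.76 CPM in control libraries. Of these last 2 arms miR-34c-3p was the higher in every CIH library and in control library 2 (15.2 against 14.7 CPM). In control libraries 1 and 3 miR-34b-5p was the higher.

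Of the 6 names, 5 passed the filter on low counts and 0 of these were called by the quasi-likelihood test of edgeR (Benjamini-Hochberg, threshold 0.05). The background was 0% of 456 miRNAs called, with 23 at an unadjusted p under 0.05. Among those 23 was 1 miR-34 name, miR-34c-3p. DESeq2 and limma-voom also called 0 of all miRNAs, with 37 and 21 at an unadjusted p under 0.05. Of the 5 tested names 4 had a positive log2 difference, with a median of 1.08 against 0.04 over all miRNAs tested. The members share CIH library 3, in which all of them were higher than in control library 3, so this count is not evidence from separate measurements.

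The numbered pairs join libraries of equal number, which the labels do not state to be matched, and they gave different pictures. In the pair numbered 2 the CIH level was 0.974 times the control for miR-34c-5p, 1.06 times for miR-34c-3p, 0.900 times for miR-34b-5p, 0.946 times for miR-34b-3p and 0.843 times for miR-34a-5p. In the pair numbered 1 the arms moved apart. There the ratio was 0.610 for miR-34c-5p and 0.293 for miR-34b-5p, but 1.60 for miR-34c-3p, 1.55 for miR-34b-3p and 1.37 for miR-34a-5p. In the pair numbered 3 all 5 names were higher in CIH, at 2.67 times the control for miR-34c-5p, 10.5 times for miR-34c-3p, 2.37 times for miR-34b-5p, 10.7 times for miR-34b-3p and 5.78 times for miR-34a-5p. With 1 library per group, these ratios have no replicate check. An interaction of group and library set, added after the data were examined, was called for 3 of the 5 tested names, both 3p arms and miR-34a-5p, against a background of 30.3% of 456 miRNAs (edgeR quasi-likelihood test).

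The values of the pair numbered 3 depend on scaling. By file total the median log2 difference over 456 miRNAs was 0.74 in that pair, and 41.7% of them were at least 2-fold higher in CIH (0.5 CPM added), so the shift of the members has to be read against that. After TMM scaling the median was 0.05. The log2 differences in that pair were then 0.61 for miR-34c-5p, 2.51 for miR-34c-3p, 0.43 for miR-34b-5p, 2.59 for miR-34b-3p and 1.72 for miR-34a-5p. By file total, miR-34b-3p and miR-34c-3p ranked 22 and 26 from the highest of 456 in that pair and miR-34a-5p ranked 44. miR-34c-5p ranked 138 and miR-34b-5p ranked 165.

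**Figure D2:**
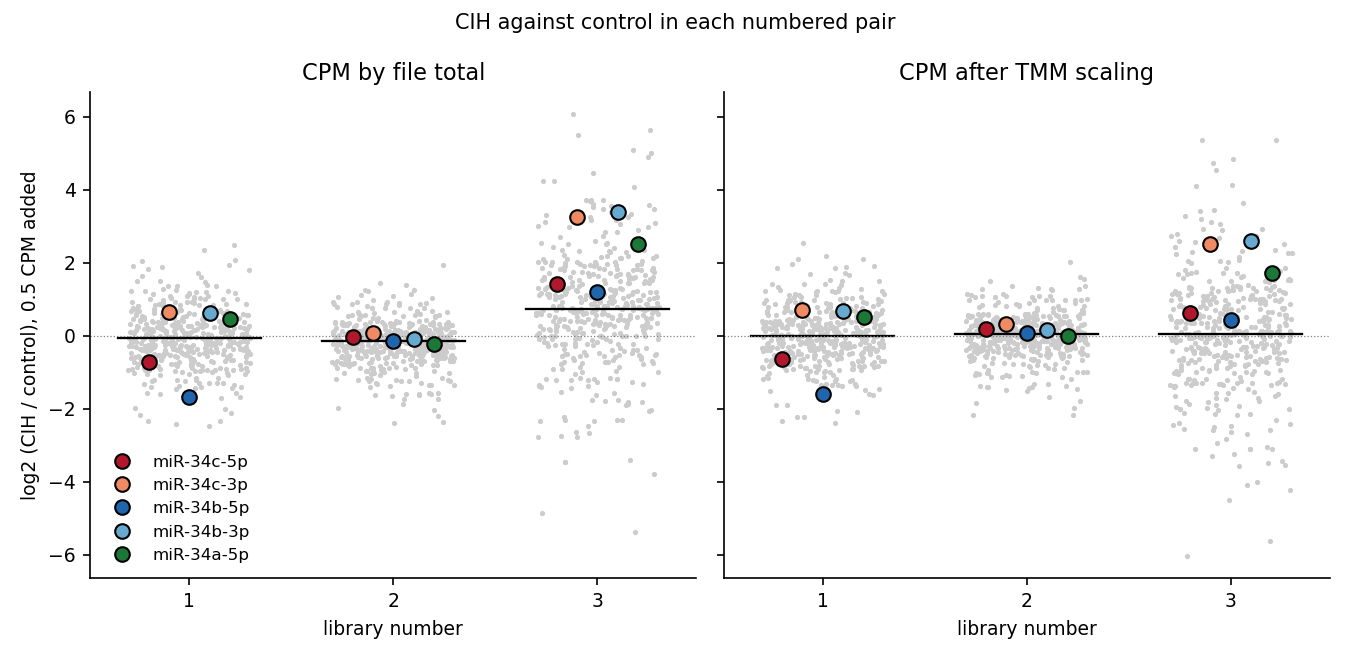
log2 ratio of CIH to control in each numbered pair, with 0.5 CPM added, for 5 miR-34 names (coloured) and 456 tested miRNAs (grey, median as a black line), by file total on the left and after TMM scaling on the right. In pair 2 the members lie near 0, in pair 1 the 5p arms of miR-34b and miR-34c lie below 0 and the other 3 names above it, and in pair 3 all 5 lie above the median.

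Within the libraries numbered 1 and 2, 0 of the 5 tested names were called, against a background of 9.37% of 459 miRNAs, by the same edgeR test with 2 libraries of each group. The log2 differences were -0.17 for miR-34c-5p (adjusted p = 0.751), 0.51 for miR-34c-3p (0.439), -0.61 for miR-34b-5p (0.469), 0.43 for miR-34b-3p (0.469) and 0.23 for miR-34a-5p (0.719). Of the 5, 3 were positive, with a median of 0.23 against -0.03 over all miRNAs tested. This set depends on single libraries: without CIH library 2, miR-34b-5p stood at -1.57 (edgeR adjusted p = 0.00178) and miR-34c-5p at -0.63 (edgeR adjusted p = 0.0330), both past the threshold, in a fit that called 18.6% of 489 miRNAs in either direction and 9.2% as lower in CIH. Without CIH library 1 they stood at -0.04 and 0.18.

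**Figure D3:**
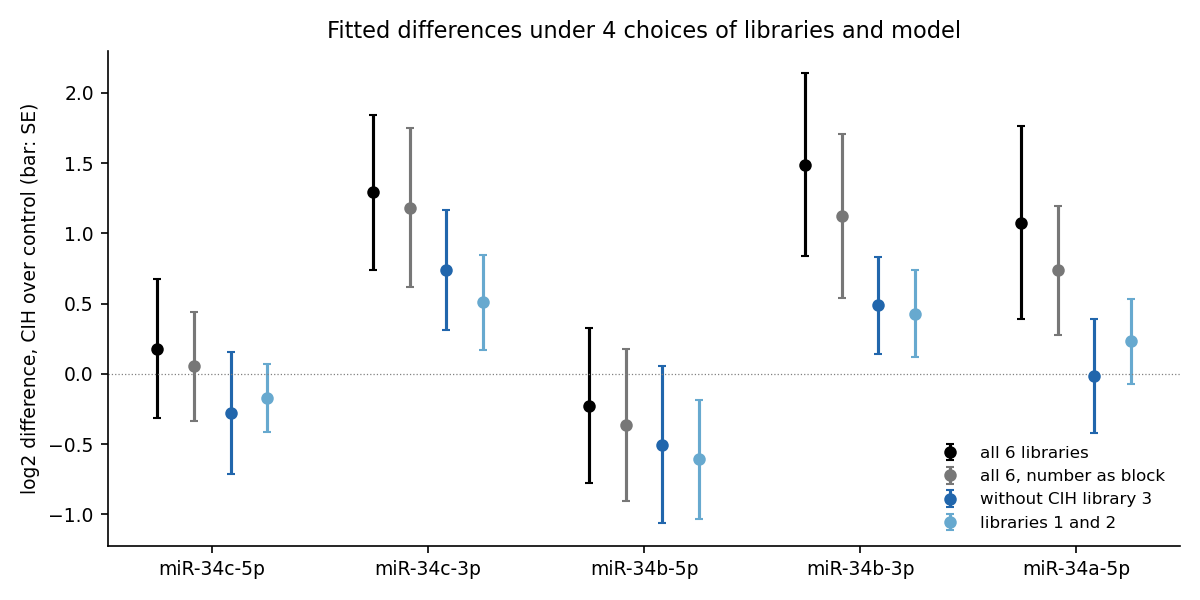
Fitted log2 difference of CIH over control for 5 miR-34 names (points; bars are standard errors) from all 6 libraries, with the library number as a block, without CIH library 3, and from the libraries numbered 1 and 2. The value of miR-34a-5p is 1.08 with all 6 libraries, -0.01 without CIH library 3 and 0.23 in the libraries numbered 1 and 2. Both 3p arms stay above 0 in the 4 fits shown.

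The arms of each hairpin were then compared within a library, which needs no scaling between libraries. miR-34b-5p held only 0.326% to 0.688% of the 5p counts of the family. Since the counting of reads that match several 5p names is not known, the miR-34b arm ratio carries that uncertainty. miR-34b and miR-34c favoured opposite arms. The 3p arm made up 90.8%, 71.8% and 91.4% of miR-34b counts in CIH libraries 1, 2 and 3, and 65.0%, 70.8% and 70.3% in control libraries 1, 2 and 3. It made up only 1.28%, 0.678% and 1.01% of miR-34c counts in CIH libraries 1, 2 and 3, and 0.490%, 0.624% and 0.258% in control libraries 1, 2 and 3.

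For both hairpins the 3p share of each CIH library exceeded that of all controls, by a wide margin in CIH libraries 1 and 3 and a narrow one in CIH library 2. For miR-34b the exact 95% intervals (Clopper-Pearson, counting error only) were 87.6% to 93.3% in CIH library 1 and 90.2% to 92.5% in CIH library 3, above the highest control bound of 76.5%. That of CIH library 2, 67.5% to 75.8%, overlapped that of control library 2, 66.5% to 74.8%. For miR-34c the intervals of CIH library 2, 0.578% to 0.791%, and control library 2, 0.528% to 0.732%, overlapped as well.

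On the log2 scale, with 0.5 counts added to each arm, the 5p to 3p ratio of miR-34b was -2.68 ± 1.16 in CIH and -1.13 ± 0.21 in control libraries (SD, n = 3 each), a difference of -1.55. That of miR-34c was 6.69 ± 0.47 in CIH and 7.85 ± 0.65 in control libraries (SD, n = 3 each), a difference of -1.16. Both gave a two-sided exact permutation p of 0.1, the smallest that 3 libraries against 3 allow, and an adjusted p of 0.2 over the 4 ratios tested by exact permutation. By library number the CIH minus control difference was -2.39, -0.07 and -2.17 for miR-34b and -1.39, -0.12 and -1.97 for miR-34c in the pairs numbered 1, 2 and 3. With 3 libraries in each group this exact test cannot reach the threshold. An exact test that flips the sign of each numbered pair's difference gave p = 0.25 for both, the smallest that 3 pairs allow. Within the libraries numbered 1 and 2 the differences were -1.23 for miR-34b and -0.75 for miR-34c. Exact permutation gave p = 0.333 for each there, the smallest that 2 libraries against 2 allow.

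The same ratio was set beside that of other miRNAs, a comparison chosen after the values of miR-34 were seen. Of 59 miRNAs with both arms at a mean of 10 CPM or more, 4 (6.78%) had 5p to 3p ratios in CIH that all lay below those in control, and 0 had them all above. These 4 were miR-34b, miR-34c, miR-146b and miR-450b. In the pair numbered 1 miR-34b had the largest difference of the 59 and miR-34c ranked 8 by size; the median size was 0.55. In the pair numbered 3 they ranked 6 and 9, with a median size of 0.95. In the pair numbered 2 they ranked 51 and 46.

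**Figure D4:**
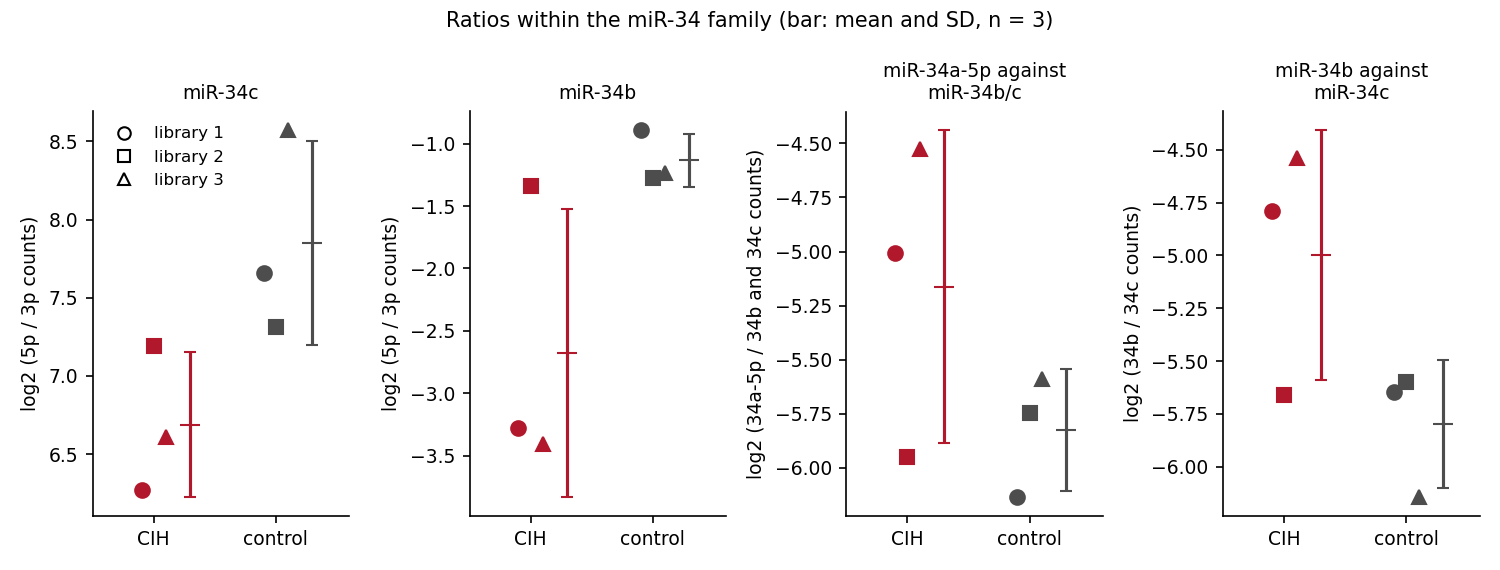
log2 ratios of counts within the miR-34 family in each library (markers by library number), CIH left of control, with the group mean and SD beside them (n = 3 each). The 5p to 3p ratios of miR-34c and miR-34b are lower in all CIH libraries than in any of the controls, while CIH library 2 lies within or next to the control range in every panel.

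**Figure D5:**
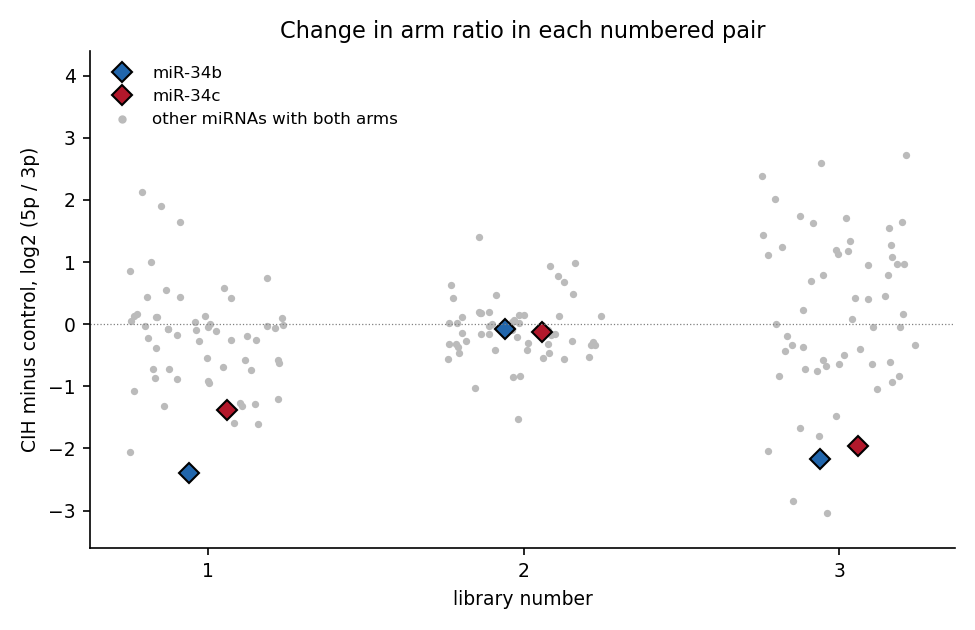
CIH minus control difference of the log2 5p to 3p ratio in each numbered pair for miR-34b and miR-34c (diamonds) and the other miRNAs with both arms (grey points), 59 in all. Both diamonds lie low in pairs 1 and 3 (miR-34b at -2.39 and -2.17, miR-34c at -1.39 and -1.97) and near 0 in pair 2.

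The balance between loci followed the same libraries. The log2 ratio of miR-34a-5p to the summed miR-34b/c counts was -5.01, -5.95 and -4.53 in CIH libraries 1, 2 and 3, against -6.14, -5.75 and -5.59 in control libraries 1, 2 and 3. CIH libraries 1 and 3 were above all controls and CIH library 2 was within their range, for a difference of 0.66 (two-sided exact permutation p = 0.3, adjusted p = 0.3). Between the neighbouring precursors, miR-34c gave 27.7, 50.7 and 23.2 counts for each count of miR-34b in CIH libraries 1, 2 and 3, and 50.1, 48.5 and 70.9 in control libraries 1, 2 and 3. The log2 ratio of miR-34b to miR-34c differed by 0.80 (two-sided exact permutation p = 0.3, adjusted p = 0.3). Within the libraries numbered 1 and 2 the differences of these 2 log2 ratios were 0.46 and 0.40. The summed miR-34b/c locus held 1694, 2425 and 4857 CPM in CIH libraries 1, 2 and 3 and 2712, 2491 and 1758 CPM in control libraries 1, 2 and 3. Its CIH minus control difference was 672 CPM by file total and 384 CPM after TMM scaling.

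Across the 6 libraries, log2 CPM of miR-34b-3p correlated at 0.95 with both miR-34c-3p and miR-34a-5p. For the 2 arms of miR-34b the correlation was 0.33 and for those of miR-34c 0.71. miR-34b-5p correlated at 0.81 with miR-34c-5p, the name with which it may share reads. These coefficients describe 6 libraries of which CIH library 3 is the highest for 4 of the 5 names. Outside the family, the 3 miRNAs most like miR-34a-5p among 252 with a mean of 10 CPM or more were miR-455-3p, miR-146a-5p and miR-125b-1-3p (r = 0.99, 0.98 and 0.96). Each of them was highest in CIH library 3, and without the 2 libraries farthest from the median of miR-34a-5p the coefficients were -0.35, -0.61 and 0.41, so the likeness rests on those libraries. The 4 libraries left spanned only 36.4 to 46.4 CPM of miR-34a-5p, a narrow range for a correlation. The miRNAs most like miR-34c-5p were miR-199a-5p, miR-344b-3p and miR-30b-5p (r = 0.98, 0.97 and 0.94), with 0.89, 0.94 and 0.998 over the 4 libraries left after the same step. Of those 4, control library 3 held 1729 CPM of miR-34c-5p, against 2362 to 2646 CPM in CIH library 2 and control libraries 1 and 2. The 3 named miRNAs were also lowest in control library 3 among these 4, so the coefficients lean on that library. All these names were picked by r over the same 6 libraries, so the values over 4 of them are no separate check.

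Other miRNAs linked to p53 were counted in the same fits. Of 10 miRNAs reported as raised or more efficiently processed under p53, 9 were listed and tested, 0 rose and 0 fell in all 6 libraries, where 0 of 456 miRNAs were called, and 4 of 9 had a positive log2 difference (median -0.15, against 0.04 over all miRNAs tested). The 3 with the smallest p were miR-16-5p, which represses cyclins, at 0.33 (SE 0.48), miR-143-3p at -0.35 (SE 0.51), and miR-215-5p, a p53-induced brake on the cell cycle, at -0.65 (SE 1.08; edgeR adjusted p of 0.970 or more for each). Within the libraries numbered 1 and 2, 0 of the 9 were called, against 9.37% of 459 miRNAs. Of 5 miRNAs reported to lower p53, 4 were tested and 0 called in either set of libraries. The background was 0 of 456 miRNAs in all 6 libraries and 9.37% of 459 in those numbered 1 and 2. In all 6 libraries 3 of the 4 had a positive log2 difference (median 0.35, against 0.04 over all miRNAs tested). In the libraries numbered 1 and 2 it was 2 of the 4 (median 0.09, against -0.03). The 3 with the smallest p in all 6 libraries were miR-125a-5p at 0.75 (SE 0.51, edgeR adjusted p = 0.899), miR-125b-5p, which targets p53 mRNA in human and zebrafish, at 0.48 (SE 0.64), and miR-25-3p at 0.23 (SE 0.80).

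Markers of other cells that use this family were read beside it. miR-449, which is known to share the miR-34 seed and to mark multiciliated epithelium together with miR-34b/c, was at or near 0. miR-449a-5p had 5, 3 and 0 counts in CIH libraries 1, 2 and 3 and 3, 1 and 0 counts in control libraries 1, 2 and 3, and miR-449c-5p, listed only in the tables numbered 3, had 0 in both. The 4 germ cell miRNAs (miR-741-3p, miR-743b-3p, miR-871-3p and miR-881-3p) were all present. They summed to 261, 224 and 278 CPM in CIH libraries 1, 2 and 3 and 441, 439 and 122 CPM in control libraries 1, 2 and 3. In all 6 libraries 0 of these 4 were called, as were 0 of 456 miRNAs. Within the libraries numbered 1 and 2, 3 of 4 fell, where 5.23% of 459 miRNAs fell. Their part in the levels of miR-34b and miR-34c was not tested.

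Of 7 epithelial miRNAs, all were listed, and they summed to 18.6 to 170 CPM in CIH and 76.3 to 409 CPM in control libraries. None of the 5 that were tested was called in all 6 libraries, where no miRNA was. In the libraries numbered 1 and 2, miR-203-3p fell by 1.24 and miR-205-5p by 1.44 on the log2 scale (edgeR adjusted p = 0.00751 and 0.000153), where 5.23% of 459 miRNAs fell. The 3 leukocyte miRNAs summed to 0.178 to 1.77 CPM in CIH and 0 to 3.18 CPM in control libraries. The 2 erythroid ones summed to 3.28 to 106 CPM in CIH and 8.35 to 129 CPM in control libraries, and the 3 of muscle to 11.6 to 38.7 CPM in CIH and 12.6 to 111 CPM in control libraries. The 2 of endothelium summed to 73.1 to 104 CPM in CIH and 33.8 to 137 CPM in control libraries. miR-122-5p, of hepatocytes, ranged from 2.09 to 5.59 CPM in CIH and from 2.16 to 4.12 CPM in control libraries, and the 2 neuronal miRNAs summed to 50.8 to 96.2 CPM in CIH and 51.0 to 181 CPM in control libraries. Their part in the levels of the family was not tested.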

How the data were processed

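The authors deposited 1 table per library with raw counts of reads for each mature miRNA name, not normalized. In 3 of the 6 tables the header says FPKM, but the values are whole numbers with a different total in each library and were taken as counts. GRCm38, DESeq 1.8.3 and featureCounts 1.5.0-p3 are listed, with no role, per the submitters' processing notes. For trimming, aligner, miRBase release and reads that match several names, nothing is given in the sources used here.

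The 929 known names in both name lists (99.97% or more of each library) were tested with edgeR 4.0.16 in R 4.3.3: filterByExpr, TMM, robust quasi-likelihood F test, group as the only term, Benjamini-Hochberg at 0.05. Ratios within a library were compared by two-sided exact permutation in scipy 1.17.1. DESeq2 1.42.0 and limma-voom (limma 3.58.1) were alternatives, beside other scalings, filters, the replicate number as a block and leaving out each library. Python 3.11.15, numpy 2.4.6, pandas 2.3.3 and matplotlib 3.10.9 were used for tables and plots. Positions come from RefSeq (GRCm38.p6).

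Total counts ran from 6291101 to 11264151, and floors and intervals cover counting error only, since no molecular identifiers are given. Libraries of one group differed beyond counting noise (lowest chi-square per degree of freedom 135). Across 257 miRNAs, deviations from the group means gave r = 0.35, 0.39 and 0.40 for libraries of equal number. The numbers were used as blocks in the blocked fit, which was an alternative to the main one. CIH library 2 correlated more with control library 1 (0.43), and CIH library 1 gave 0.20 with control library 2. Libraries numbered 3 gave -0.44 to -0.29 with those numbered 1 and 2 of the other group. These values set the libraries numbered 3 apart and do not establish matched pairs among those numbered 1 and 2. The members, lists and tests were chosen with earlier results of these data known. Named miRNAs were the members, those of miR-449, up to 3 of each p53-linked list by smallest p, and the 3 nearest patterns of miR-34a-5p and miR-34c-5p. Outside that rule, miRNAs of the cell marker lists, and miR-146b and miR-450b from the comparison of arms, were named after their values were seen.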

Additional observations from a re-analysis of the deposited data

Results flagged for a closer look

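The CIH against control difference of 3 members was not the same in the libraries numbered 3 as in those numbered 1 and 2, by an interaction of group and library set that was added after the data were examined. It was 1.49 on the log2 scale for miR-34a-5p (SE 0.49, edgeR adjusted p = 0.0190), 2.18 for miR-34b-3p (SE 0.52, edgeR adjusted p = 0.00150) and 2.08 for miR-34c-3p (SE 0.59, edgeR adjusted p = 0.00740). It did not pass for miR-34b-5p (1.04, edgeR adjusted p = 0.309) or miR-34c-5p (0.78, edgeR adjusted p = 0.176). The same interaction was called for 30.3% of 456 miRNAs, and the pair numbered 3, with 1 library per group, adds nothing to its estimate of spread.

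miR-34a-3p, which was too low to be tested, stood at 0.266 CPM (3 counts) in CIH library 3, against 0 counts in each control library. That is the floor itself.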

How the results depend on the processing

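The 5 names tested stayed uncalled in all 6 libraries under every scaling, test and filter tried, with a replicate block, with a term for the libraries numbered 3 and without any single library. With the replicate block the log2 differences were 0.05 for miR-34c-5p, 1.18 for miR-34c-3p, -0.36 for miR-34b-5p, 1.13 for miR-34b-3p and 0.74 for miR-34a-5p, and it changed no call. With total counts alone as the scaling the median over all miRNAs tested was 0.15 in place of 0.04.

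Within the libraries numbered 1 and 2 alone, 43 of 459 miRNAs were called in place of 0 (65 at a threshold of 0.1), miR-34c-5p turned to -0.17 and the CIH minus control difference of the summed miR-34b/c locus to -542 CPM, against 672 CPM in all 6 libraries (384 CPM after TMM scaling). Leaving out each of the 6 libraries gave log2 differences of -0.28 to 0.57 for miR-34c-5p (negative without CIH library 3), 0.74 to 1.58 for miR-34c-3p, -0.50 to 0.21 for miR-34b-5p (positive without CIH library 1), 0.49 to 1.86 for miR-34b-3p and -0.0128 to 1.497 for miR-34a-5p (negative without CIH library 3). The locus difference ran from -261 CPM without CIH library 3 to 1321 CPM without CIH library 1. The arm ratio differences stayed negative, from -2.21 to -1.18 for miR-34b and from -1.43 to -0.79 for miR-34c, and the count of calls stayed at 0. Within the libraries numbered 1 and 2, leaving out 1 of the 4 gave 6 to 91 calls, -1.57 to -0.0368 for miR-34b-5p, -0.63 to 0.18 for miR-34c-5p, 0.34 to 0.77 for miR-34c-3p, 0.22 to 0.63 for miR-34b-3p and 0.04 to 0.52 for miR-34a-5p. A group left with a lone library takes its spread from the other group, and the cause of these changes was not tested. Depth limits miR-34b-5p, with 40 counts in CIH library 1, and miR-34a-3p.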
